A study of Mus musculus with 6 samples.

Results

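Histones are the proteins around which DNA is wound, and the genes that encode them were compared here between RNA co-precipitated with Staufen2 and total input RNA of a mouse podocyte line. The members were all genes whose symbol marks a canonical histone, a linker histone or one of the H2A, H3 or macroH2A variants, each measured by its brightest probe set listed with a single gene symbol. This gave 37 genes of 19938 measured. By symbol, 24 were replication-dependent genes of the histone clusters, 6 were polyadenylated variant genes, 5 were germline histones, and the other two were H2ax and the pseudogene Macroh2a3. Members were taken by symbol and not by a measured difference, but members, classes and lists were chosen with earlier results of these data known.

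Replication-dependent histone mRNAs are made in S phase in large amounts, have no introns, and end in a short stem-loop instead of a poly(A) tail. The stem-loop binding protein, encoded by Slbp, holds that end from processing to translation, and the mRNAs are degraded when DNA synthesis stops. Replacement variants such as H2A.Z and macroH2A are made outside S phase too, from genes with introns and ordinary polyadenylated mRNAs. Staufen2 is a protein that binds double-stranded stretches of RNA and is known for its part in mRNA transport.

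The Staufen2 pulldown group (3 arrays) held RNA co-precipitated by an antibody against Staufen2 from cytoplasmic lysate, and the input group (3 arrays) held total RNA. Both came from cells of 1 immortalized mouse podocyte line, grown at the permissive temperature with interferon and then differentiated at the non-permissive temperature without it; no genotype or treatment separated the groups. A control-antibody pulldown is not analysed here, and a difference includes whatever beads and antibody retain by themselves. It may also include a difference between cytoplasmic and total RNA, which cannot be told apart here. From either source 100 ng of RNA was labelled with a whole-transcript kit, so the arrays show the composition of each RNA and not how much of it was recovered. Kits of this kind prime along the RNA and not from the poly(A) tail. Lysates pool cells, so whether a lower share of a histone mRNA in the pulldown arose in all cells or some cannot be told.

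All values are log2 expression values normalized by RMA, and differences are pulldown minus input on that scale, with the standard error (SE) from limma. A gene was called higher or lower at a Benjamini-Hochberg adjusted p under 0.05 over all 19938 genes. With 3 arrays against 3, an exact permutation test cannot give a p below 0.1. Array medians lay between 6.53 and 6.54, and arrays of the same group correlated at 0.998 to 0.999, against 0.982 to 0.983 for arrays of different groups. Of all genes, 31.3% were called higher and 17.3% lower, so that 64.4% of the calls were higher; after cyclic loess, a scaling that removes trends with brightness, 52.9% of the calls were higher. The podocyte label was checked on 10 markers, of which 8 were measured; 6 of them had input means over 6.54, the median probe set value. Nphs1 (6.30) and Podxl (6.04) lay below it, and the summed level of the 8 was 76.8 to 77.1 in pulldown arrays, against 74.5 to 74.9 in input arrays. Of 11 markers of other kidney and blood cells, 5 lay above the median in input, led by Acta2 (13.57) and Pdgfrb (11.45), while Ptprc, Pecam1, Cdh5, Kdr, Des and Umod lay below it. The summed level of the 11 was 83.8 to 84.0 in pulldown arrays and 83.3 to 83.7 in input arrays, and their part in the histone differences was not tested.

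The promoters of 3 members are shown because their genes carry the results. H2bc3 had the largest difference of all members, H4c4 stands for the H4 genes, and H2az1 had the largest difference among the variants on single-gene probe sets. Each runs from upstream of the start of the gene into its first bases and is taken from RefSeq (GRCm38.p6), with capitals marking an octamer, a CCAAT box or a TATA box on either strand.
H2bc3, chr13:23746484-23746783, + strand: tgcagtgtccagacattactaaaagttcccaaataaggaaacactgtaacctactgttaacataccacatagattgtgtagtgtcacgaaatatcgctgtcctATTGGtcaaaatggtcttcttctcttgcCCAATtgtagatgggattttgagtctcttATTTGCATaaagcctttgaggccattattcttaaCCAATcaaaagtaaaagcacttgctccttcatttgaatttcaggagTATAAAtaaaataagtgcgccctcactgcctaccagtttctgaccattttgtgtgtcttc
H4c4, chr13:23581318-23581617, + strand: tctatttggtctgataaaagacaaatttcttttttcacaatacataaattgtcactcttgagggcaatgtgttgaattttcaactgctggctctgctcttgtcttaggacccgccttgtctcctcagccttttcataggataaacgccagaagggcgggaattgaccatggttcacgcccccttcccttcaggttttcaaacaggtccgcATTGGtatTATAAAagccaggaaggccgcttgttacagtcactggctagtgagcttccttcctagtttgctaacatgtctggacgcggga
H2az1, chr3:137864237-137864536, + strand: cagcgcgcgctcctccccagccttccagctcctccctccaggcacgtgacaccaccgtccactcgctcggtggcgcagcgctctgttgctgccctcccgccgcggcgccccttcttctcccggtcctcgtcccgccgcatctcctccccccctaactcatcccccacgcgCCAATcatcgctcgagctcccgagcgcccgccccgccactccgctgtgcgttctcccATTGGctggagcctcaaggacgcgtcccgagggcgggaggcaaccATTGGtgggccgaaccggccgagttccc
A promoter was given for 31 of the 37 members, 20 of them stem-loop genes. The octamer ATTTGCAT, a site of Oct1 known from H2B promoters, was found (both strands searched) in 6 of the 20 stem-loop promoters, all of H2A or H2B genes (H2bc3, H2bc14, H2bc8, H2bc18, H2ac4 and H2ac8), and in 1.74% of all 32851 promoters listed there. TATAAA was found in 13 of the 20 stem-loop promoters (65%) and in 13.6% of all. CCAAT was found in 17 of the 20 (85%), in 4 of the 6 variant promoters (66.7%) and in 37.4% of all. Among the stem-loop H4 promoters it was found in 2 of 5 (40%), with H4c4 as 1 of the 2. Of the 6 variant promoters, 0 held the octamer or TATAAA as spelled here. A match describes the letters of the promoter and not a bound site, and the arrays did not measure transcription.

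The stem-loop histones made up a smaller part of the Staufen2 pulldown than of the input. Of the 24 genes, 17 were called lower, against 17.3% of all genes, and 3 were called higher, against 31.3% of all genes. Their median difference was -0.87, or 1.83-fold lower in the pulldown, where the median of all genes was 0.04. The difference was at least 2-fold for 6 of the 24, against 2.01% of all genes. In 20 of the 24 the pulldown and input values did not overlap (55.9% of all genes), and in 18 of these the pulldown was the lower (19.6%). Relative to each gene's input mean, the median over the 24 genes was -0.84, -0.69 and -0.76 in the pulldown arrays and -0.03, 0.02 and -0.0032 in the input arrays, so the shift was of like size in all 3 pulldown arrays.

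**Figure D1:**
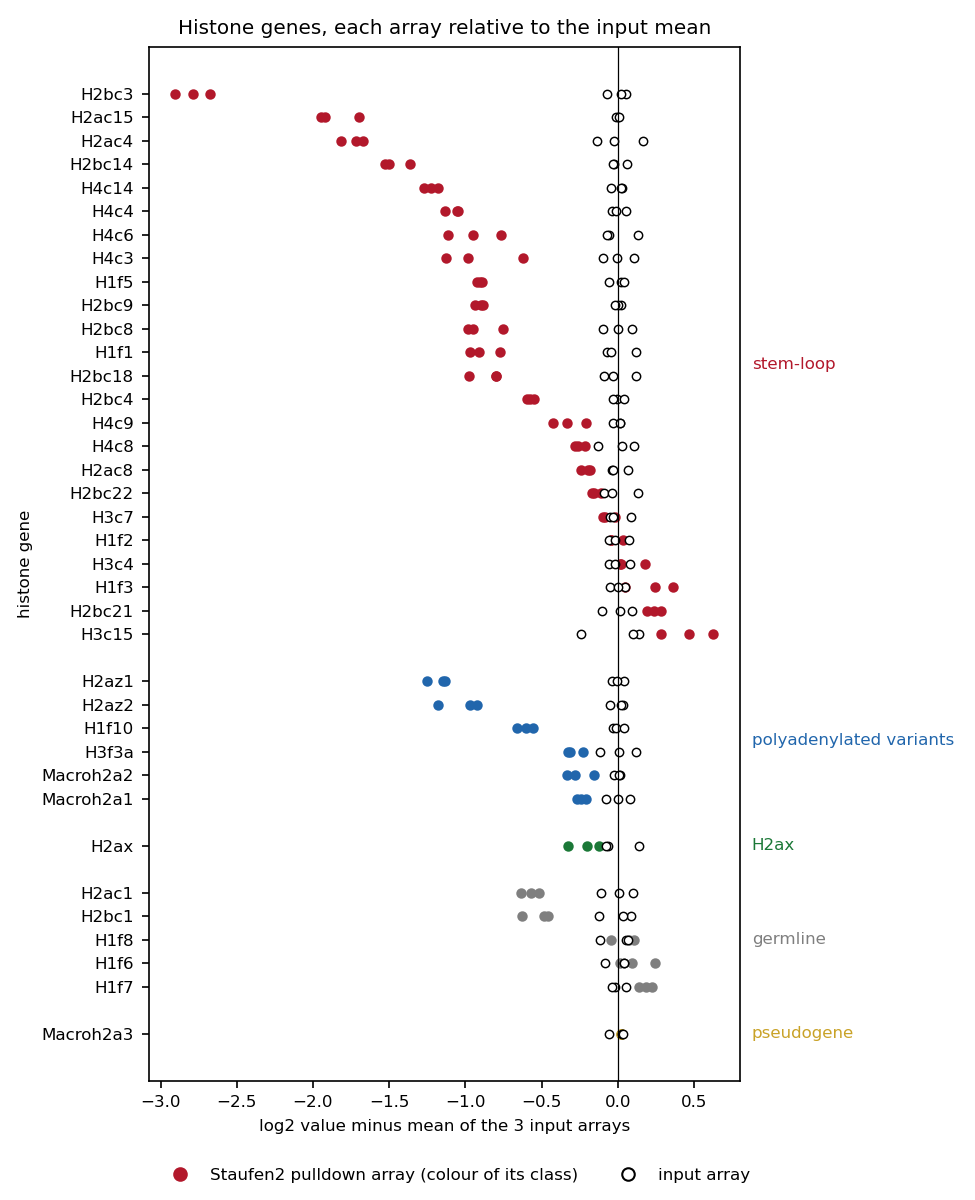
Each row is a histone gene, grouped by class, and each point is an array, placed by its log2 value minus the mean of the 3 input arrays; filled points are pulldown arrays and open points input arrays. H2bc3 lies farthest to the left at -2.79, all 6 polyadenylated variants lie left of 0, and H2bc21, H3c15 and H1f3 lie to the right.

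The H2B genes encode a core histone that pairs with H2A. H2bc3 had 7.28, 7.17 and 7.06 in the pulldown arrays, against 10.01, 9.97 and 9.89 in the input arrays. Every pulldown value was thus little above the array median, and the difference was -2.79 ± 0.061 (SE, n = 3 each) or 6.91-fold (limma, adjusted p = 1.9e-07). H2bc14 had 8.74, 8.88 and 8.71 in the pulldown, against 10.22, 10.30 and 10.21 in input, a difference of -1.46 ± 0.051 (limma, adjusted p = 4.9e-07). H2bc9 had 9.15, 9.10 and 9.14 in the pulldown, against 10.05, 10.04 and 10.01 in input, a difference of -0.91 ± 0.028 (limma, adjusted p = 3.5e-07). In all 3 genes every pulldown array lay below every input array. Of the 8 H2B genes 6 were lower, against 17.3% of all genes. The differences of these 6 ran from -2.79 to -0.58 (H2bc3, H2bc14, H2bc9, H2bc8, H2bc18 and H2bc4).

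The other two H2B genes stood apart. H2bc21 was called higher, at 5.90, 5.95 and 5.85 in the pulldown, against 5.76, 5.68 and 5.56 in input (0.24 ± 0.053; limma, adjusted p = 0.0075). H2bc22 did not pass, with a difference of -0.15 and an adjusted p of 0.073 from limma, but was called lower with a replicate block, after cyclic loess, after centring on bright probe sets and without input replicate 1 (limma, adjusted p = 0.022 to 0.036). Both lay below the level of the median probe set.

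All 3 genes of the H2A core histone were lower, against 17.3% of all genes. H2ac15 had 9.25, 9.50 and 9.28 in the pulldown, against 11.20, 11.19 and 11.21 in input, a difference of -1.86 ± 0.064 or 3.62-fold (limma, adjusted p = 4.8e-07). H2ac4 had 6.64, 6.78 and 6.73 in the pulldown, against 8.31, 8.62 and 8.43 in input, a difference of -1.74 ± 0.078 (limma, adjusted p = 1.3e-06). In the pulldown H2ac4 thus lay near the array median. H2ac8, which was dim in both groups at 4.63 to 4.70 in the pulldown and 4.84 to 4.94 in input, fell by 0.21 (limma, adjusted p = 0.0025).

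All 6 genes of the H4 core histone were lower too, with a median of -0.93, against 17.3% of all genes called lower. Their means over 6 arrays were all above the level of the median probe set, where 26.8% of genes were lower. H4c4 had 11.64, 11.63 and 11.55 in the pulldown, against 12.65, 12.74 and 12.68 in input, a difference of -1.08 ± 0.038 (limma, adjusted p = 5.0e-07). H4c14 had 9.57, 9.66 and 9.61 in the pulldown, against 10.80, 10.87 and 10.86 in input, a difference of -1.23 ± 0.035 (limma, adjusted p = 2.9e-07). The groups were well apart in both. H4c6 (-0.94) and H4c3 (-0.91) fell by like amounts, and H4c9 (-0.32) and H4c8 (-0.25) by less.

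H1 histones bind the linker DNA between nucleosomes, and their 4 stem-loop genes were divided. H1f5 had 8.36, 8.37 and 8.34 in the pulldown, against 9.20, 9.28 and 9.31 in input, a difference of -0.91 ± 0.035 (limma, adjusted p = 7.2e-07). H1f1 fell by 0.89 (limma, adjusted p = 1.6e-05). H1f2, whose probe set was bright in both groups, had 11.71, 11.71 and 11.79 in the pulldown, against 11.83, 11.70 and 11.74 in input. Its groups overlapped, and its difference was -0.02 with a 95% interval of -0.12 to 0.08 (limma, adjusted p = 0.74). H1f3 was called higher with overlapping groups, at 6.25, 6.37 and 6.06 in the pulldown, against 5.96, 6.06 and 6.01 in input (0.22 ± 0.076; limma, adjusted p = 0.049), and the call was lost in all leave-one-out fits but the one without the pulldown's replicate 3, where its adjusted p was 0.0039.

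The H3 core histone was hardly measured by probe sets of a single gene. Of its 3 genes 0 were called lower at that threshold, against 17.3% of all genes. H3c15 was called higher, at 6.70, 6.86 and 6.52 in the pulldown, against 6.38, 5.996 and 6.34 in input (0.46 ± 0.12; limma, adjusted p = 0.014), and its adjusted p was 0.053 without the pulldown's replicate 1 and 0.060 without its replicate 2. H3c4 (0.07, adjusted p = 0.33 from limma) and H3c7 (-0.07, adjusted p = 0.25 from limma) did not pass. H3c15 and H3c7 lay below the median level.

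Calls depended on the level in the stem-loop genes and over all genes. Of the 18 stem-loop genes whose mean over 6 arrays was above that of the median probe set, 16 were lower, 0 were higher and 2 (H1f2 and H3c4) did not pass. Among all 12009 genes above that level 26.8% were lower and 45.9% higher. Of the 6 stem-loop genes below it, 1 was lower and 3 were higher (H2bc21, H3c15 and H1f3), where 3.05% of all 7929 genes not above the level were lower and 9.19% higher. Their differences ran from -0.21 to 0.46.

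**Figure D2:**
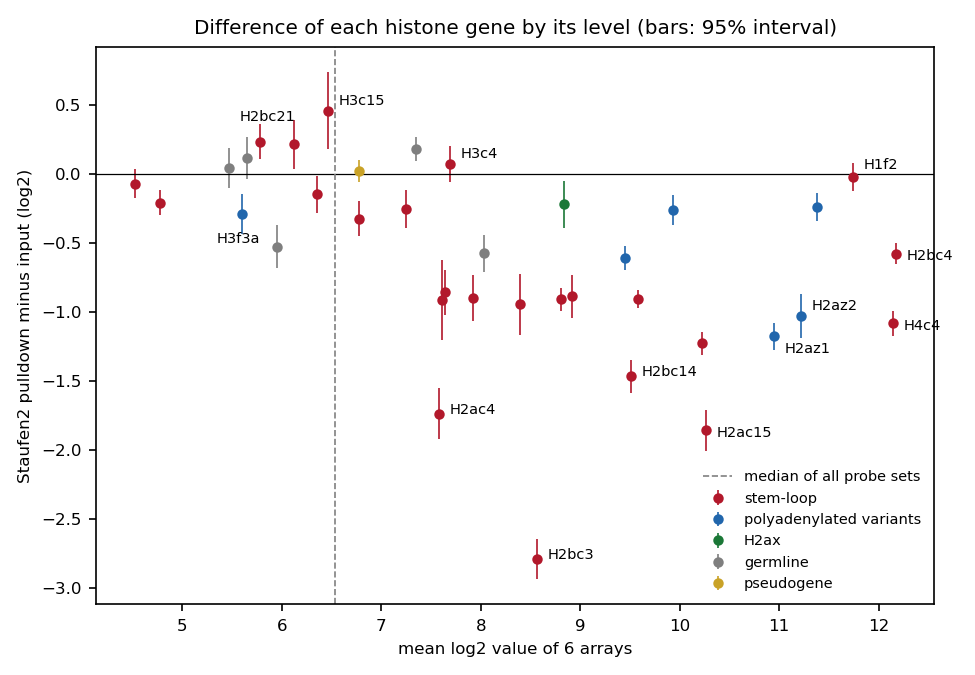
Each point is a histone gene at its mean log2 value over the 6 arrays (horizontal) and its difference, pulldown minus input on the log2 scale (vertical), with the 95% interval from limma and colours by class. The dashed line is the median of all probe sets at 6.54; to its right 16 of 18 stem-loop genes were lower, and H1f2 and H3c4 lie near 0.

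Histone genes are short, and the size of genes was set beside the result. Of the 24 stem-loop genes, 21 span less than 1 kb in the gene table, and 16 of these were lower with a median of -0.90. Of the other 992 coding genes spanning less than 1 kb, 4.84% were lower; of the 78 among them with a mean above 6.54, 41% were lower, with a median difference of -0.01. The part of gene size in the histone differences was not tested.

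Some genes of the clusters are also known, from human cells, to give polyadenylated mRNAs, often in cells that have stopped dividing. Of the 4 that were measured, H2bc4 and H4c8 were lower, H2bc21 was higher and H1f2 did not pass, with a median of -0.14. The other 20 stem-loop genes had a median of -0.90, with 15 lower and 2 higher. Among all genes 17.3% were lower and 31.3% higher. H2bc21 lay below the median level, where calls were rarer. H2bc4 had 11.89, 11.87 and 11.91 in the pulldown, against 12.46, 12.51 and 12.43 in input. Its difference was -0.58 ± 0.031 (limma, adjusted p = 3.1e-06). No test of the difference between these 4 and the other 20 was made, and the arrays do not tell which end an mRNA carried.

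The polyadenylated variants measured by the member rule were lower as well. Variants that hardly differed are not among these 6. H3f3b had no single-gene probe set and differed by -0.02 and 0.04 on probe sets of several genes. H2aj (-0.16) has a symbol outside the rule. All 6 were called lower, against 17.3% of all genes, with a median difference of -0.45 or 1.36-fold and a range of -1.18 to -0.24; 2 of them were at least 2-fold lower (2.01% of all genes), and the pulldown lay below the input without overlap in all 6 (19.6% of all genes). Relative to the input mean of each gene, their median was -0.47, -0.42 and -0.49 in the pulldown arrays and 0.0069, -0.03 and 0.03 in the input arrays. The median of the variants includes H3f3a by a dim single-gene probe set (-0.29). On 4 bright probe sets shared with a predicted gene H3f3a differed by -1.32 to -1.12, so the class median depends on the probe set kept. The range of the variants lay within that of the stem-loop genes. The difference between the classes was not tested because their members were chosen by name and do not replicate the pulldown.

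Both genes of H2A.Z, a variant found around the start sites of transcribed genes, fell most among the variants on single-gene probe sets. H2az1 had 10.39, 10.29 and 10.40 in the pulldown, against 11.58, 11.50 and 11.53 in input, a difference of -1.18 ± 0.041 or 2.26-fold (limma, adjusted p = 4.8e-07). A second probe set of H2az1 gave 10.07, 9.95 and 10.02 in the pulldown, against 11.25, 11.21 and 11.28 in input, a difference of -1.23. H2az2 had 10.76, 10.55 and 10.81 in the pulldown, against 11.77, 11.68 and 11.75 in input, a difference of -1.03 ± 0.067 (limma, adjusted p = 7.9e-06). These falls are of the size seen for H4c4 and H4c14. H1f10, a linker histone variant, had 9.15, 9.19 and 9.09 in the pulldown, against 9.72, 9.74 and 9.79 in input, a difference of -0.61 ± 0.037 (limma, adjusted p = 5.5e-06).

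The genes of macroH2A, a variant with a large extra domain that is enriched on the inactive X chromosome, were bright and differed by little. Macroh2a1 had 11.29, 11.23 and 11.25 in the pulldown, against 11.49, 11.42 and 11.58 in input, a difference of -0.24 ± 0.043 (limma, adjusted p = 0.0024). Macroh2a2 had 9.73, 9.78 and 9.90 in the pulldown, against 10.08, 10.04 and 10.07 in input, a difference of -0.26 ± 0.047 (limma, adjusted p = 0.0024). Neither passed a test against a 1.2-fold change. H3f3a, which encodes the replacement form of H3, had a dim single-gene probe set with 5.42, 5.52 and 5.43 in the pulldown, against 5.62, 5.75 and 5.86 in input, a difference of -0.29 ± 0.061 (limma, adjusted p = 0.0053). Its other probe sets are described with those of several genes.

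H2ax, the H2A variant phosphorylated at DNA breaks, is known to give both stem-loop and polyadenylated mRNAs. It had 8.82, 8.74 and 8.62 in the pulldown, against 8.88, 8.87 and 9.09 in input. Every pulldown array lay below every input array, by little, and the difference was -0.22 ± 0.073 (limma, adjusted p = 0.042). Leaving out 1 array at a time gave adjusted p-values of 0.039 to 0.14, and only without the pulldown's replicate 1 did the call hold.

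Of the 5 germline histones, H2ac1 and H2bc1, the testis forms of H2A and H2B, were lower. H2ac1 had 7.68, 7.80 and 7.75 in the pulldown, against 8.20, 8.33 and 8.42 in input (-0.57 ± 0.058; limma, adjusted p = 8.6e-05). H2bc1 fell by 0.53 (limma, adjusted p = 0.00033) and lay below the median level. H1f7, a linker histone of spermatids, was higher by 0.18 (limma, adjusted p = 0.0044). H1f6 (0.12, adjusted p = 0.18 from limma) and H1f8 (0.05, adjusted p = 0.58 from limma) did not pass, nor did the pseudogene Macroh2a3 (0.02, adjusted p = 0.61 from limma). Over all 37 members, 26 were lower and 4 higher, with a median of -0.53, and 7 fell short of the threshold. Among all genes 17.3% were lower and 31.3% higher, and 48.7% were called in either direction.

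The copies of a core histone gene are nearly identical in their coding sequence, so probe sets of a single listed gene may also take up RNA of other copies, and the values of single copies are uncertain. Of the 32 probe sets that the annotation lists with several genes, a histone among them, 30 were called lower and 0 higher, with a median of -1.24. Of all 1621 probe sets listed with several genes 33.6% were lower and 13.4% higher, and of all 35556 probe sets 18.1% were lower and 22.8% higher. The 32 share genes and some share values: 30 had values of their own, of which 28 were lower.

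The H3 copies, which single-gene probe sets hardly measured, were lower in all 10 of their probe sets, with differences of -1.33 to -1.15 and a median of -1.29. The probe set with the largest fall had 11.30, 11.20 and 11.25 in the pulldown, against 12.54, 12.59 and 12.61 in input. The 7 probe sets of H2B copies fell by a median of 1.25, with a range of -1.30 to -1.06. Both H2A probe sets were lower (-1.29 and -1.07), and one of them had 11.77, 11.80 and 11.74 in the pulldown, against 12.83, 12.84 and 12.85 in input. The 6 probe sets of H4 copies were lower by less, with a median of -0.68 and a range of -1.01 to -0.66. A probe set listed with H2bc6 and the linker histone gene H1f4 differed by -0.50.

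**Figure D3:**
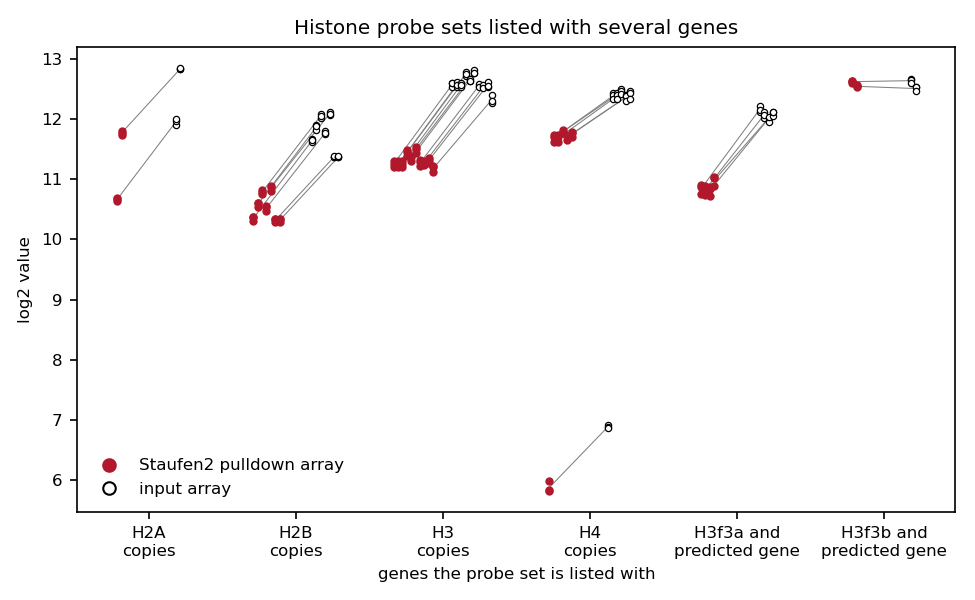
Log2 values of 31 histone probe sets listed with several genes, by the histone they are listed with (the probe set of H2bc6 and H1f4 is left out); filled points are the 3 pulldown arrays, open points the 3 input arrays, and a line joins the group means of a probe set. All sets but those of H3f3b slope upward from pulldown to input, and the H3f3b sets lie at 12.47 to 12.66 in both.

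The variant genes H3f3a and H3f3b encode the same protein, the replacement form of H3, from different mRNAs. Each was measured on bright probe sets that are listed together with a predicted gene. The 4 probe sets of H3f3a were all lower, with differences of -1.32 to -1.12. One of them had 10.86, 10.75 and 10.90 in the pulldown, against 12.21, 12.12 and 12.15 in input (limma, adjusted p = 4.9e-06). The 2 probe sets of H3f3b did not pass. One had 12.63, 12.63 and 12.61 in the pulldown, against 12.66, 12.65 and 12.61 in input (-0.02, 95% interval -0.08 to 0.05; limma, adjusted p = 0.66). The other had 12.56, 12.53 and 12.54 in the pulldown, against 12.53, 12.53 and 12.47 in input (0.04, 95% interval -0.03 to 0.11; limma, adjusted p = 0.37).

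Within an array, the mean of the H3f3a probe sets minus that of the H3f3b probe sets was -1.69, -1.81 and -1.67 in the pulldown arrays, against -0.49, -0.53 and -0.44 in the input arrays. The difference between the groups was -1.23, and the groups did not overlap; the exact 2-sided permutation test gave p = 0.1, the smallest that 20 splits allow. This comparison was chosen after its values were seen. After cyclic loess the H3f3b probe sets had differences of -0.11 (limma, adjusted p = 0.028) and -0.05 (limma, adjusted p = 0.23).

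Genes that make, process and degrade histone mRNA mostly differed the other way. Of 22 such genes 16 were called higher (31.3% of all genes) and 4 lower (17.3% of all genes), with 2 short of the threshold and a median of 0.40. Input means of 21 of the 22 were above the median level. Of all genes with a mean over 6 arrays above that level, 45.9% were higher and 26.8% lower. Casp8ap2, a component of histone locus bodies, had 10.04, 10.14 and 9.91 in the pulldown, against 8.81, 8.89 and 8.96 in input (1.14 ± 0.064; limma, adjusted p = 3.8e-06). Xrn1, an exonuclease that degrades decapped mRNA, was higher by 0.91 ± 0.031 (limma, adjusted p = 4.7e-07), and Tut7, which adds uridines to RNA ends, by 0.87 ± 0.029 (limma, adjusted p = 4.5e-07). Srrt, a partner of the cap-binding complex, was higher by 0.44 ± 0.026, and Eri1, the exonuclease that trims the histone stem-loop, by 0.37 ± 0.043 (limma, adjusted p = 0.00019).

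Slbp, by contrast, was lower. It had 9.66, 9.63 and 9.68 in the pulldown, against 9.88, 10.06 and 9.89 in input, a difference of -0.29 ± 0.050 (limma, adjusted p = 0.0020). The other lower genes, named after their values were seen, were Lsm10 (-0.85), a subunit of the U7 particle that cuts histone precursors, Lsm1 (-0.46), of the decay complex that binds oligouridylated ends, and Mif4gd (-0.12), a partner of the stem-loop binding protein in translation.

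Most chaperones that carry and deposit histones were higher. Of 26 measured, 18 were called higher and 5 lower, with 3 short of the threshold and a median of 0.42. Of all genes 31.3% were higher and 17.3% lower. Input means of all 26 were above the median level. Of all genes with a mean over 6 arrays above it, 45.9% were higher and 26.8% lower. Ubn2, of the complex that deposits the replacement H3, had 10.28, 10.36 and 10.28 in the pulldown, against 9.34, 9.36 and 9.33 in input (0.97 ± 0.031; limma, adjusted p = 4.3e-07). Cabin1 of the same complex was higher by 0.78 ± 0.029, Srcap, which exchanges H2A for H2A.Z, by 0.79 ± 0.032, and Supt6, an elongation factor that handles histones, by 0.94 ± 0.034. The 5 lower genes, named after their values were seen, were Vps72 (-0.70), which binds H2A.Z, the nucleolar chaperone Npm1 (-0.43), and Asf1a (-0.48), Asf1b (-0.20) and Chaf1b (-0.46), which carry new H3 and H4.

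Genes of DNA replication act in the same phase of the cycle as the stem-loop histones. They were more often higher than lower, as were genes above the median level in general. Of 24 measured, 13 were called higher and 4 lower, with 7 short of the threshold and a median of 0.20. Among all genes 31.3% were higher and 17.3% lower. All 24 had input means above the median level. Of all genes with a mean over 6 arrays above that level, 45.9% were higher and 26.8% lower. Pola1, the catalytic subunit of the primase-polymerase complex, was higher by 0.81 ± 0.034, and Cdc6, a licensing factor, by 0.78 ± 0.046. Tyms, which makes thymidylate, was lower (-0.80 ± 0.048), as was Gins2 of the replicative helicase (-0.52 ± 0.037); Cdt1 (-0.39) and Pcna (-0.13), named after their values were seen, were the other lower genes.

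Of 10 other histone-like and chromatin-binding genes outside the member rule, 5 were lower, 0 were higher and 5 did not pass, with a median of -0.11; 17.3% of all genes were lower and 31.3% higher, and 26.8% of those above the median level were lower. Hmgn1 (-0.23), Hmgn2 (-0.14) and Hmga2 (-0.14), which bind nucleosomes or DNA, and H2aj (-0.16), a polyadenylated H2A variant, were lower by little. Hmgn2 did not pass on the mean of its probe sets (-0.056; limma, adjusted p = 0.11) and was higher on its dimmest (0.11; limma, adjusted p = 0.043), and H2aj did not pass without the pulldown's replicate 1 (limma, adjusted p = 0.053) or input replicate 1 (limma, adjusted p = 0.052). Hmgb1 (-0.22), named after its value was seen, was the fifth. Cenpa, the H3 variant of centromeres, had 9.39, 9.29 and 9.33 in the pulldown, against 9.27, 9.40 and 9.46 in input, with overlapping groups and a difference of -0.04 (limma, adjusted p = 0.54). Of 6 further histone genes whose present symbols fall outside the rule, found after their values were seen, 3 were lower: H2aw differed by -0.59 (limma, adjusted p = 4.4e-06), H4f16 by -0.66 (limma, adjusted p = 3.8e-05), and the dim H2bu2 by -0.24 (limma, adjusted p = 0.0066). H2bu1-ps (-0.13, adjusted p = 0.092 from limma), H2al3 (0.0095, adjusted p = 0.78 from limma) and H2ab1 (0.0070, adjusted p = 0.90 from limma) did not pass.

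**Figure D4:**
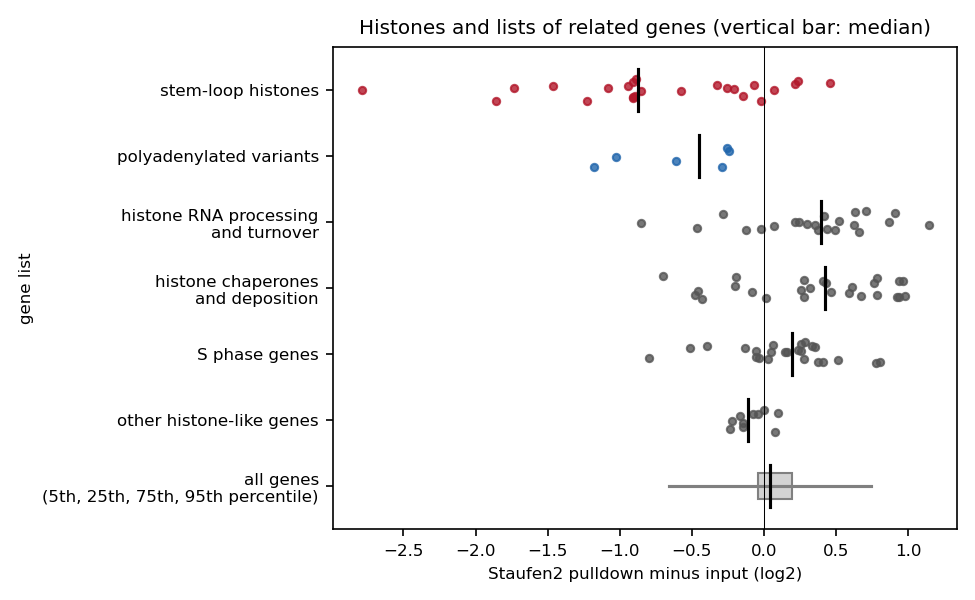
Differences, pulldown minus input on the log2 scale, of the genes of each list (points) with the list's median (vertical bar); the box and line of the bottom row give percentiles of all genes. The stem-loop histones have a median of -0.87 and the variants of -0.45, while the lists of histone RNA processing (0.40), chaperones (0.42) and S phase genes (0.20) have medians above 0. The variants include H3f3a by its dim single-gene probe set.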

How the data were processed

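RNA of 3 Staufen2 pulldowns and 3 inputs was measured on arrays. The authors deposited 1 log2 expression value per probe set and array. RMA and limma are the tools that the submitters' processing notes name; their versions and a genome build are not given in the sources used here. Quantile scaling within RMA usually makes all arrays' distributions alike, and a difference is then one of share among the RNAs measured. Of 35556 probe sets, 21789 had 1 gene symbol in the platform annotation, 1621 had several and 12146 had no listed gene. For each gene the brightest single-symbol probe set over all 6 arrays was kept.

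Groups were compared with limma 3.58.1 in R 4.3.3 (2-sided, no covariates, Benjamini-Hochberg over 19938 genes; over 35556 probe sets for those listed with several genes), and the procedure was tested on simulated data. SEs are moderated standard errors. The number of arrays limits the precision: the median SE of a gene was 0.039. No label says whether replicates were separate cultures, and the spread behind the p-values may be technical. Same-numbered arrays of the groups did not deviate together and were not paired.

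Members, lists and classes were chosen with earlier results of these data known. Every member could be named; array values are given for the 8 stem-loop genes with the smallest adjusted p, the stem-loop genes called higher, the variants and H2ax. Of the other lists the 4 genes with the smallest adjusted p, Slbp, Eri1 and Cenpa were named. Array values of H1f2, H2bc4, H2ac8 and H2ac1 were added after the values were seen. H1f0 is not analysed here. Promoters are from RefSeq (GRCm38.p6). Alternatives were a replicate block, an intensity trend, cyclic loess, centring on probe sets above the 75th percentile, a filter on dim genes, array weights, other probe sets per gene, a test against a 1.2-fold change, and leaving out each array. Figures were drawn with matplotlib 3.10.9.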

Additional observations from a re-analysis of the deposited data

How the results depend on the processing

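Of 1188 comparisons of 81 results under other settings, 1122 kept the direction and the side of the threshold (or a count within 1.5 times). In part this was fixed in advance, so the 1122 overstate how stable the results are. A replicate block, an intensity trend, the filter on dim genes and the test against a 1.2-fold change leave the difference of a gene as it was. Every member but H2az1 had 1 probe set, so other probe sets per gene left its values unchanged. The number of stem-loop genes called lower, 17 of 24, ran from 14 to 19, and all 6 variants were lower except in the test against a 1.2-fold change and where the filter on dim genes removed H3f3a (5 of 5; median -0.61). Against a 1.2-fold change, 3034 genes were higher and 1822 lower; 3 variants, 1 of the cluster genes also described as polyadenylated and 0 of the other histone-like genes were lower, 5 S phase genes and 0 stem-loop genes were higher, and H2ax had an adjusted p of 1 (-0.22). The filter on dim genes left 1 of 19 stem-loop genes higher and 1 of 2 germline histones lower. Without single arrays, 1 to 3 stem-loop genes were higher (1 without the pulldown's replicate 1 or 2), 3 to 4 other histone-like genes were lower (3 without input replicate 1), and H2ax differed by -0.26 to -0.15. With a replicate block H2ax differed by -0.22 (limma, adjusted p = 0.072) and 18 stem-loop genes were lower; the numbers pair no samples, with correlations of 0.0064, 0.041 and -0.052, and 1 of 3 samples correlated best with its own number. With array weights H2ax differed by -0.20 (limma, adjusted p = 0.060). Values near 0 turned round: without single arrays H1f2 ran from -0.048 to 0.018, H1f8 from -0.015 to 0.089, Cenpa from -0.095 to 0.00025 and Macroh2a3 from -0.0072 to 0.038; Macroh2a3 was -0.022 after cyclic loess and -0.018 after centring on bright probe sets; the second H3f3b probe set was -0.053 after cyclic loess and -0.0041 after that centring. Hmgn2 was 0.11 on its dimmest probe set (limma, adjusted p = 0.043). After cyclic loess H1f2 (-0.12, limma, adjusted p = 0.038) and Cenpa (-0.15, limma, adjusted p = 0.040) were called lower. The cause of these changes was not tested. In alternatives added after seeing the data, 20 of 27 stem-loop genes were lower with H2aw, H2bu2 and H4f16 included by older symbols. These genes were added with their lower calls already known, so the higher count was fixed in advance. Of the 24 themselves, 16 of the 18 above the median level and 16 of the 21 spanning under 1 kb were lower. How far the dim members lay above background was not measured here.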
